A study of Rattus norvegicus with 6 samples.

Results

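The Rab GTPase genes were followed in rat PC12 cells with and without PCBP-1 overexpression. Members were the protein-coding genes of the count table whose symbol is Rab, a number and at most 1 letter, and 55 of the 20609 genes in the table met this rule. The rule uses names only and no measured value. Rab1b matched no gene and is not analysed here, and Rab29 stands in the table under the older symbol Rab7l1, which the rule does not take.

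PC12 cells descend from a pheochromocytoma of the rat adrenal medulla. The Ctrl group is 3 samples of PC12 cells carrying a control plasmid, and the PCBP1-OE group is 3 samples of the same line overexpressing PCBP-1, an RNA-binding protein, here from a plasmid that fuses it to EGFP. Poly-A RNA was sequenced, and the deposited values are counts of reads per gene, 19730209 to 22315623 per library. The study calls the samples of a group biological replicates, but the labels do not say whether they came from separate cultures, so p-values measure the spread between these samples, which may be partly technical. The text of the study describes both a transfection and a stable line, and names a harvest time for the RT-qPCR cells only.

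Rab proteins are small GTPases that mark membranes. Each switches between a GDP-bound form held in the cytosol and a GTP-bound form anchored in a membrane by geranylgeranyl groups, where it recruits tethers, motors and other effectors. Guanine nucleotide exchange factors (GEFs) switch Rabs on and GTPase-activating proteins (GAPs) switch them off. In neuroendocrine cells the family is known for sorting cargo through the Golgi and endosomes and for the docking of secretory granules. Of the 55 members, 11 were placed by textbook role among secretory Rabs of the ER and Golgi, 20 among endocytic Rabs and 12 among exocytic Rabs. The remaining 12 were in none of these lists and were kept as other. Among them are Rab36 of the Golgi and Rab39a and Rab12 of endosomes, so the secretory and endocytic counts leave these out.

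Some properties of the libraries bear on all results below. No gene of the table was matched to Pcbp1, so the overexpression was not checked. The chromaffin markers were low. Dbh, Ddc, Chga and Chgb, enzymes and granule proteins of catecholamine cells, had 0 to 9 counts per library. Th, another such enzyme, had 141 to 185, and Gata3 and Slc18a1 also had enough counts to be tested. Syp, also on this list, had 4 to 12 counts per library and was not tested. The name PC12 is that given by the labels and the study, and the identity of the cells was not tested here. The 8 matched chromaffin markers summed to 10.5 to 11.5 CPM (counts scaled to equal library size) in controls and 10.4 to 11.7 in PCBP1-OE, most of it Th. The 5 glial markers summed to 231 to 257 CPM in controls and 222 to 232 in PCBP1-OE, most of it S100b. The 3 matched fibroblast markers, mostly Pdgfra, summed to 224 to 229 and 199 to 211 CPM, with no overlap. The 5 leukocyte markers summed to 7.60 to 8.96 and 6.89 to 7.66 CPM, and the 3 endothelial markers to 4.07 to 5.62 and 4.95 to 5.90 CPM. In bulk RNA, a change in the number of cells that use a gene and a change in RNA per cell cannot be told apart. No marker of these lists passed the test described next. Of the controls, replicate 3 was the nearest to the PCBP1-OE mean in 27 of the 47 tested Rab genes (57.4%) and in 50% of all genes tested. The part of these differences in the results was not tested.

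Which Rab genes changed with PCBP-1 overexpression was asked with edgeR's quasi-likelihood test over all 12624 genes with enough counts, with p-values adjusted by the Benjamini-Hochberg method over all of them. A gene is called changed at an adjusted p of 0.05 or less. Of the 55 Rab genes, 47 had enough counts. The test called 3 of them (6.38%), where it called 9.45% of all genes tested. Rab4b and Rab13 fell and Rab32 rose, by 17.9%, 16.1% and 15.3%. By direction, 1 Rab gene rose against 4.45% of all genes, and 2 fell against 5% of all genes. Under upper-quartile scaling the split of all calls moved from 562 higher and 631 lower to 655 and 427, while the same 3 Rab genes were called. No Rab gene reached 2-fold, and 0.19% of all genes tested were called with a change of at least 2-fold. At an unadjusted p under 0.05 there were 16 Rab genes (34%), against 28.4% of all genes tested. DESeq2 called 3 Rab genes and 11.2% of all genes, and limma-voom called 2 and 9.48%.

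The sizes of the Rab changes were small in both directions. The fitted log2 fold changes of the 47 genes ran from -0.41 to 0.38, with 23 above 0 and 24 below. Their median was -0.00086, beside 0.0029 over all genes, and it was 0.00073 with RLE scaling and 0.019 with upper-quartile scaling, where all genes had 0.023. Without regard to sign, the median change was 0.095 for the Rab genes and 0.13 for all genes. Rab genes together took 0.390%, 0.406% and 0.400% of the counts in the 3 controls and 0.415%, 0.402% and 0.403% in the 3 PCBP1-OE libraries, so the groups overlapped. In normalized CPM, the 3 libraries of a group all lay above the 3 of the other in 20 of the 47 Rab genes (42.6%), against 30.6% of all genes tested. Of these, 9 were higher in PCBP1-OE, against 14.1% of all genes, and 11 lower, against 16.5%, while upper-quartile scaling gave 11 higher (23.4%, against 16.4% of all genes) and 6 lower (12.8%, against 13.5%). The tested Rab genes had a median of 1103 counts per library and all tested genes 535. Their median standard errors of the log2 fold change were 0.061 and 0.084. The part of depth in the share without overlap and in the size of the changes was not tested.

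**Figure D1:**
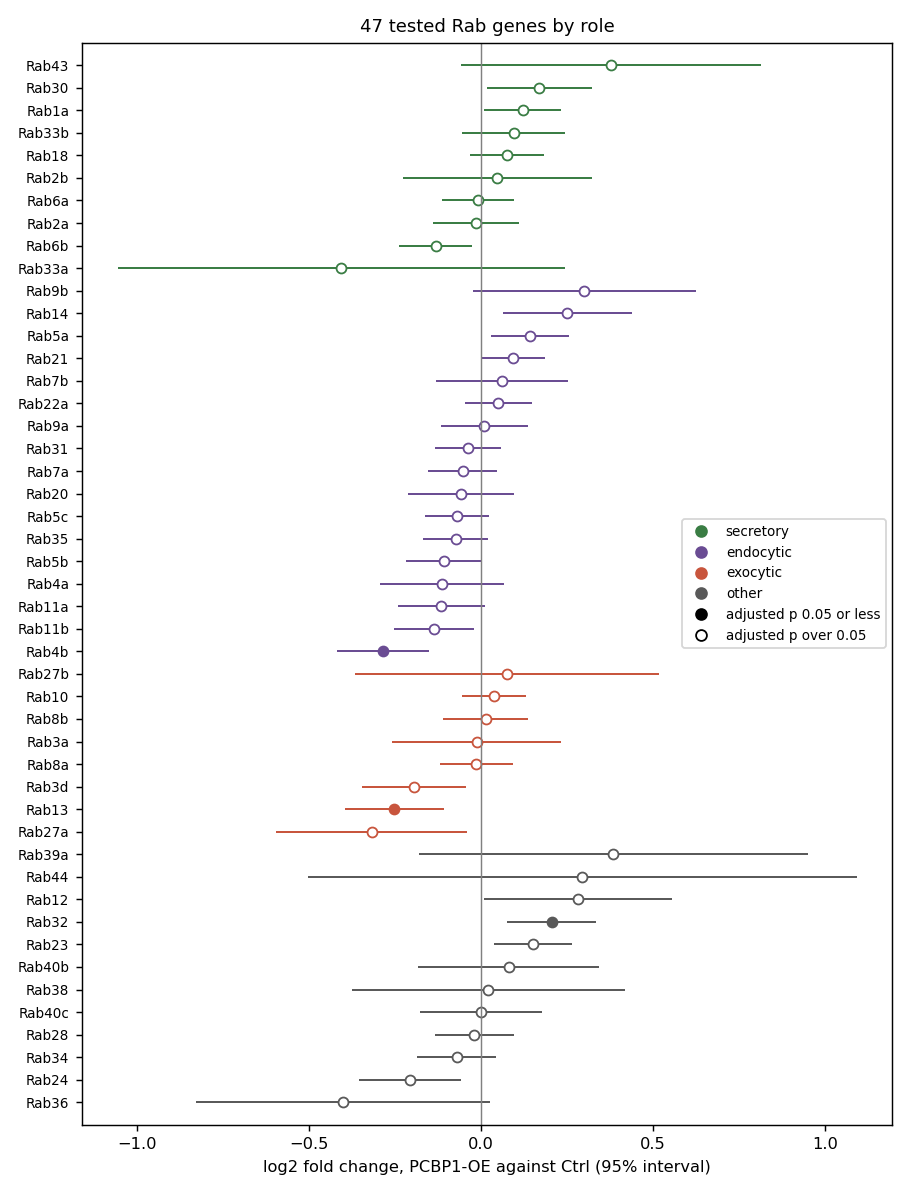
Log2 fold change of PCBP1-OE against Ctrl (x axis) for each of the 47 tested Rab genes (y axis), coloured by role, with the 95% interval of the edgeR fit as a line. Filled points mark the 3 genes with an adjusted p of 0.05 or less, Rab4b and Rab13 below 0 and Rab32 above it, and most of the open points lie close to 0.

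Secretory Rabs direct traffic between the ER, the Golgi and its cisternae. None of the 10 tested genes was called by edgeR's test, DESeq2 or limma-voom, beside 9.45% of all genes with edgeR. With edgeR, 3 had an unadjusted p under 0.05, beside 28.4% of all genes. The median log2 fold change of the 10 genes was 0.061. Rab1a (ENSRNOG00000004992, chromosome 14) controls the step from the ER to the Golgi, and the study examined its splicing. Its normalized levels were 253, 269 and 253 CPM in controls and 293, 262 and 286 CPM in PCBP1-OE. The lowest PCBP1-OE library lay under the highest control, so the groups overlapped. The log2 fold change was 0.12 ± 0.051 (SE, 95% interval 0.012 to 0.23, adjusted p = 0.135).

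These counts add up all transcripts of Rab1a and cannot tell splice forms apart. The study did so with a shared forward primer and a reverse primer for each form, shown here because they define the Rab1a event. The capitals mark the part of each reverse primer ahead of its last 12 bases, which are identical in both.
Forward, for both forms: atctccagcccagaccat
Reverse, for the form labelled AS: AGCACACATaccagatcactg
Reverse, for the form labelled M: AAGGTGACaccagatcactg
This part has 9 bases in the AS primer and 8 in the M primer. Junction reads for Rab1a were not analysed here.

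Rab43 and Rab33a held the ends of the secretory range. Rab43, a Golgi Rab, was at 2.14, 2.54 and 2.81 CPM in controls and 3.90, 2.87 and 2.96 CPM in PCBP1-OE. The groups did not overlap, but the fitted log2 fold change of 0.38 had a standard error of 0.20 and an adjusted p of 0.236. Rab33a, a Golgi Rab of neurons, was at 1.12, 1.01 and 1.03 CPM against 0.998, 0.694 and 0.664 CPM. These rest on 13 to 23 counts per library, and the log2 fold change of -0.41 ± 0.30 (SE) had an adjusted p of 0.402. Its close relative Rab33b, which also takes part in autophagosome formation, was at 28.2, 29.1 and 30.2 CPM in controls and 30.3, 32.8 and 30.4 CPM in PCBP1-OE, with no overlap and an adjusted p of 0.388.

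Among the other secretory genes, Rab6b, the neuronal form of a Golgi Rab that works in retrograde transport, had the smallest adjusted p. It was at 97.5, 97.1 and 100.5 CPM in controls and 91.3, 92.98 and 84.95 CPM in PCBP1-OE, each PCBP1-OE library under each control. The log2 fold change was -0.13 ± 0.0475 (SE, adjusted p = 0.0885). The ubiquitous form Rab6a had a log2 fold change of -0.0090 with an interval of -0.11 to 0.092. Rab30, a Golgi Rab, was higher in each PCBP1-OE library than in any control, at a log2 fold change of 0.17 (adjusted p = 0.129). Rab2a and Rab2b, which act between the ER and the Golgi, had log2 fold changes of -0.014 and 0.048, and Rab18, of the ER and lipid droplets, had 0.075. These 3 genes had overlapping groups. Rab19 had at most 1 count per library and was not tested.

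Endocytic Rabs control the early endosome, recycling and the late endosome. The test called 1 of the 17 tested genes (5.88%), beside 9.45% of all genes. Of the 17, 6 had an unadjusted p under 0.05, beside 28.4% of all genes. The median log2 fold change of the 17 genes was -0.054. The gene called was Rab4b (ENSRNOG00000001500, chromosome 1), which acts in recycling from early endosomes. Its levels were 58.7, 61.9 and 54.3 CPM in controls and 47.9, 45.6 and 50.03 CPM in PCBP1-OE. Every PCBP1-OE library lay under every control. The means were 58.3 ± 3.81 and 47.8 ± 2.22 CPM (SD, n = 3 each). The log2 fold change was -0.29 ± 0.061 (SE, edgeR adjusted p = 0.0179), which is 17.9% lower. Without 1 library it lost its call in 4 of 6 fits. The adjusted p was 0.0601 without Ctrl replicate 1, 0.103 without Ctrl replicate 2, 0.0721 without PCBP1-OE replicate 1 and 0.0830 without PCBP1-OE replicate 2. It was 0.00113 without Ctrl replicate 3 and 0.0329 without PCBP1-OE replicate 3.

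Rab4a, the paralog that shares the recycling role, was at 18.8, 18.1 and 18.5 CPM in controls and 17.3, 16.6 and 17.1 CPM in PCBP1-OE. The groups did not overlap here either, at a log2 fold change of -0.12 ± 0.082 (SE, adjusted p = 0.386). The Rab5 genes, whose products build the early endosome, lay on different sides of 0. Rab5a was at 80.9, 83.5 and 79.7 CPM in controls and 95.5, 85.1 and 88.4 CPM in PCBP1-OE, each PCBP1-OE library above each control. Rab5b was at 141, 159 and 148 CPM against 137, 141 and 137 CPM, and Rab5c at 346, 335 and 335 CPM against 313, 323 and 331 CPM, each PCBP1-OE library below each control. Their log2 fold changes were 0.14 for Rab5a (standard error 0.051), -0.11 for Rab5b (standard error 0.050) and -0.070 for Rab5c (standard error 0.042). None was called, with adjusted p-values of 0.0922, 0.174 and 0.30.

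Rab7a, the Rab of the late endosome and lysosome, was at 518, 533 and 503 CPM in controls and 489.9, 486 and 521 CPM in PCBP1-OE. The groups overlapped, and the interval of its log2 fold change ran from -0.15 to 0.044. Rab11a and Rab11b mark the recycling endosome. Rab11a was at 154, 154 and 140.3 CPM in controls and 141, 127 and 145 CPM in PCBP1-OE, and its log2 fold change of -0.12 ± 0.057 (SE) had an adjusted p of 0.206. Rab11b had a log2 fold change of -0.14 and an adjusted p of 0.109. Ctrl replicate 3 held the lowest control value of both genes, and without it they passed at 0.0490 and 0.00675. Without PCBP1-OE replicate 2, the lowest of all libraries for Rab11a, the log2 fold change of that gene was -0.060 (adjusted p = 0.595).

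The largest endocytic value above 0 was that of Rab9b, of the path from late endosomes to the trans-Golgi. It was at 4.64, 4.79 and 5.26 CPM in controls and 5.22, 6.59 and 6.33 CPM in PCBP1-OE. The groups overlapped by a narrow margin, and the log2 fold change of 0.30 ± 0.15 (SE) had an adjusted p of 0.206. Rab14, which links the trans-Golgi with early endosomes, was at 26.7, 26.9 and 32.6 CPM in controls and 33.1, 36.8 and 32.8 CPM in PCBP1-OE. Ctrl replicate 3 lay just under the PCBP1-OE libraries in this gene, at an adjusted p of 0.0778 with it and 0.00394 without it. Rab21, an early endosomal Rab, did not overlap between groups at a log2 fold change of 0.093 (adjusted p = 0.166).

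The other endocytic genes lay within 0.08 of 0 on the log2 fold change scale. They were Rab35 of fast recycling, at -0.074 with PCBP1-OE libraries under the controls, Rab20 at -0.059, Rab31 at -0.038, Rab9a at 0.010, Rab22a at 0.050 and Rab7b at 0.062. Not tested were Rab15 with 1 to 7 counts per library, Rab17 with 0 to 6, and Rab25, known from epithelia, with 3 to 16.

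**Figure D2:**
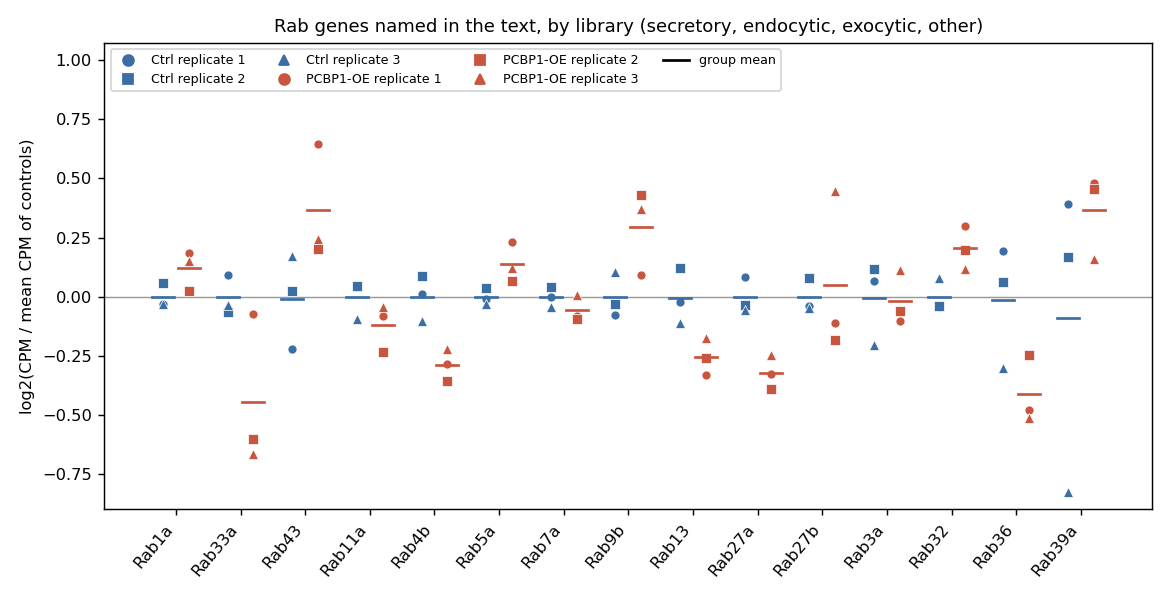
Log2 of CPM over the mean CPM of the controls (y axis) for 15 Rab genes (x axis, ordered by role), with 1 point per library and a bar at each group's mean. Rab4b, Rab13, Rab27a and Rab33a have all PCBP1-OE libraries below the controls, and Rab5a, Rab32 and Rab43 all above. The other genes shown overlap.

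Exocytic Rabs carry vesicles to the plasma membrane and dock them there. The test called 1 of the 8 tested genes (12.5%), beside 9.45% of all genes. Of the 8, 3 had an unadjusted p under 0.05, beside 28.4% of all genes. The median log2 fold change of the 8 genes was -0.013. The gene called was Rab13 (ENSRNOG00000016733, chromosome 2), known from tight junction assembly and from traffic to the cell surface. Its levels were 62.4, 69.0 and 58.7 CPM in controls and 50.5, 53.0 and 56.2 CPM in PCBP1-OE. The groups did not overlap, although Ctrl replicate 3 and PCBP1-OE replicate 3 came close. The means were 63.4 ± 5.20 and 53.2 ± 2.85 CPM (SD, n = 3 each). The log2 fold change was -0.25 ± 0.065 (SE, edgeR adjusted p = 0.0334), which is 16.1% lower. The adjusted p rose above 0.05 without replicate 1 (0.0855) or 2 (0.160) of Ctrl, or replicate 1 (0.139) or 2 (0.109) of PCBP1-OE. It stayed under it without Ctrl replicate 3 (0.00264) or PCBP1-OE replicate 3 (0.0436).

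Rab27a and Rab27b dock secretory granules. Rab27a was at 7.90, 7.28 and 7.18 CPM in controls and 5.94, 5.70 and 6.28 CPM in PCBP1-OE, without overlap. It had the lowest log2 fold change of the exocytic genes, -0.32, with a standard error of 0.13 and an adjusted p of 0.121. Rab27b was at 2.96, 3.21 and 2.94 CPM against 2.81, 2.68 and 4.14 CPM, and PCBP1-OE replicate 3 alone lay above the controls. Its log2 fold change was 0.075 ± 0.20 (SE) and turned to -0.14 without that library.

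Rab3 proteins regulate the calcium-triggered release of vesicles and granules. Rab3a, the main form in neurons, was at 14.1, 14.6 and 11.7 CPM in controls and 12.6, 12.9 and 14.6 CPM in PCBP1-OE. The groups overlapped, and the log2 fold change was -0.012 with an interval of -0.26 to 0.23. Rab3d was at 38.2, 36.2 and 35.1 CPM in controls and 31.8, 29.9 and 34.0 CPM in PCBP1-OE, each PCBP1-OE library below each control (log2 fold change -0.19, adjusted p = 0.0840). It passed without Ctrl replicate 3, at 0.0386. Rab3b had 1 to 4 counts per library and Rab3c 0 or 1, and neither was tested.

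Rab8a, Rab8b and Rab10 carry cargo from the trans-Golgi to the surface. Their log2 fold changes were -0.014, 0.014 and 0.037, all with overlapping groups, and their intervals lay between -0.12 and 0.13. Rab26 and Rab37, Rabs of secretory granules, had 0 to 2 and 0 to 4 counts per library and were not tested.

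Of the 12 other Rabs, all were tested, and 4 had an unadjusted p under 0.05, beside 28.4% of all genes. Rab32 (ENSRNOG00000014258, chromosome 1), a Rab of mitochondria and of melanosomes and related organelles, was the 1 gene called (8.33%, beside 9.45% of all genes). Its levels were 56.6, 56.7 and 61.6 CPM in controls and 71.8, 66.8 and 63.2 CPM in PCBP1-OE. The groups did not overlap, and the third replicates of both groups lay nearest to each other. The means were 58.3 ± 2.87 and 67.3 ± 4.31 CPM (SD, n = 3 each). The log2 fold change was 0.21 ± 0.059 (SE, edgeR adjusted p = 0.0455), which is 15.3% higher. It lost its call without replicate 1 (0.128) or 2 (0.168) of Ctrl, or replicate 1 (0.184) or 2 (0.124) of PCBP1-OE, and with limma-voom (0.05005). It kept the call without Ctrl replicate 3 (0.00762) or PCBP1-OE replicate 3 (0.0396).

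**Figure D3:**
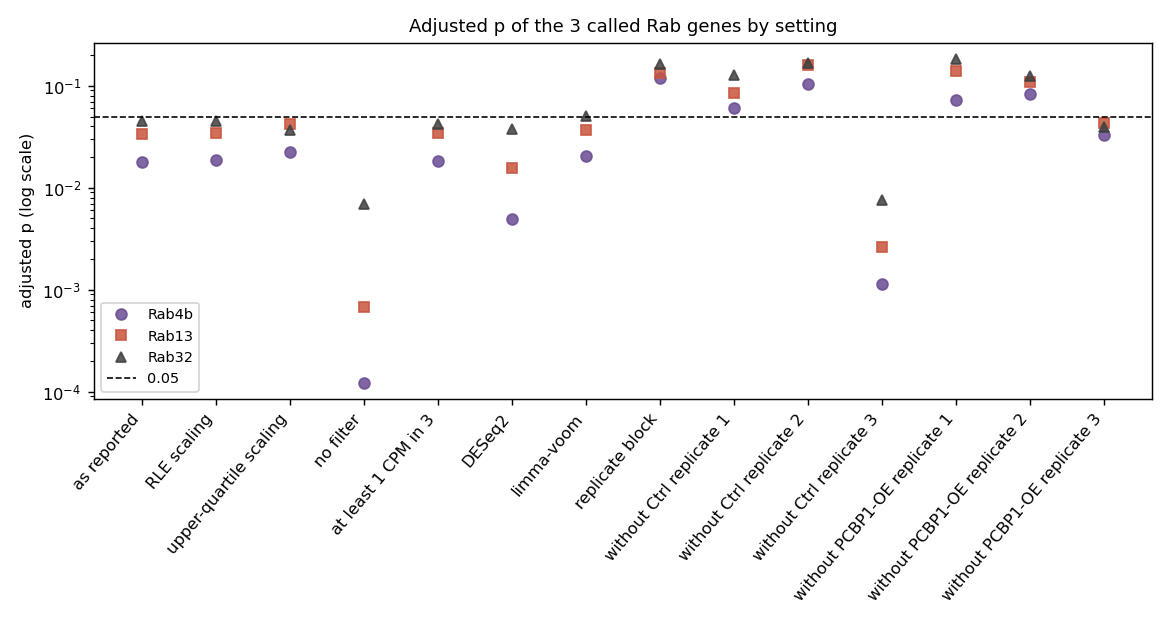
Adjusted p on a log scale (y axis) of Rab4b, Rab13 and Rab32 in the fit as reported and under 13 alternatives (x axis), with a dashed line at 0.05. All 3 genes lie above the line in the fits without replicate 1 or 2 of Ctrl or replicate 1 or 2 of PCBP1-OE.

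Rab23, a Rab of the primary cilium that restrains Hedgehog signaling, was at 59.4, 60.4 and 61.8 CPM in controls and 68.1, 70.0 and 63.5 CPM in PCBP1-OE. The groups did not overlap, at a log2 fold change of 0.15 ± 0.052 (SE, adjusted p = 0.0784). Rab24, linked to autophagy, was at 55.1, 58.3 and 48.5 CPM in controls and 45.6, 48.2 and 46.5 CPM in PCBP1-OE, again without overlap but with Ctrl replicate 3 next to the PCBP1-OE libraries. Its log2 fold change was -0.21 ± 0.067 (SE, adjusted p = 0.0693). Rab12, which acts between recycling endosomes and lysosomes, was at 7.85, 9.44 and 10.7 CPM against 11.9, 10.9 and 11.2 CPM (adjusted p = 0.160). When Ctrl replicate 3 was left out, these genes passed at 0.0432, 0.00311 and 0.0437, in the order given.

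Rab39a, of endosomes and phagosomes, and Rab36, of the Golgi, held the ends of this group. Rab39a was at 3.42, 2.92 and 1.47 CPM in controls and 3.63, 3.57 and 2.91 CPM in PCBP1-OE, and the low Ctrl replicate 3 set most of the distance between the group means. The log2 fold change of 0.38 ± 0.26 (SE, adjusted p = 0.359) was 0.092 without that library. Rab36 was at 3.82, 3.50 and 2.72 CPM against 2.41, 2.83 and 2.35 CPM, at a log2 fold change of -0.40 ± 0.20 (SE, adjusted p = 0.20). Rab28, Rab34, Rab38, Rab40b and Rab40c had log2 fold changes of -0.020, -0.071, 0.021, 0.080 and -0.00086, and Rab44, with 10 to 16 counts per library, had 0.29 with a standard error of 0.37. All of these overlapped between groups.

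How much single libraries carried the family count was read from fits that left out 1 library. The test called 0 of the 47 Rab genes without replicate 1 or 2 of Ctrl or replicate 1 or 2 of PCBP1-OE, with 11, 10, 10 and 8 genes at an unadjusted p under 0.05 in that order. The share of all genes called in these fits was 1.92%, 0.375%, 1.32% and 1.06%. The share of all genes at an unadjusted p under 0.05 was not counted in them. Without PCBP1-OE replicate 3 the call of Rab23 came beside the other 3, which makes 8.51% of the Rab genes, and 5.42% of all genes were called. Without Ctrl replicate 3 it called 10 Rab genes (21.3%) and 22.3% of all genes. Of these 10, Rab12, Rab14, Rab23 and Rab32 rose, and Rab3d, Rab4b, Rab11a, Rab11b, Rab13 and Rab24 fell. The other 37 Rab genes were called in no alternative.

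Paralogs were compared as the log2 ratio of their counts within a library, which does not depend on how libraries are scaled. Of 13 pairs, 6 had groups that did not overlap, each with p = 0.1 in a two-sided exact permutation test, the smallest that 3 libraries against 3 allow, and 0.217 after adjustment over the 13 pairs. How often the ratios of other gene pairs do not overlap was not counted, so the 6 pairs have no share to be read against. The log2 ratio of Rab5b to Rab5a was 0.80, 0.93 and 0.89 in controls, against 0.52, 0.73 and 0.64 with PCBP-1 overexpressed, a difference of -0.24. For Rab5c to Rab5a it was 2.10, 2.01 and 2.07 against 1.71, 1.93 and 1.91, a difference of -0.21. Both ratios are over Rab5a, so they are not independent. Rab4b to Rab4a differed by -0.17, Rab9b to Rab9a by 0.29, Rab27b to Rab27a by 0.37 and Rab33b to Rab33a by 0.53. The difference was 0.21 for Rab27b to Rab27a without PCBP1-OE replicate 3 and -0.11 for Rab4b to Rab4a without Ctrl replicate 2. The remaining 7 pairs overlapped, among them Rab11b to Rab11a with a difference of -0.019 and Rab6b to Rab6a with -0.12.

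**Figure D4:**
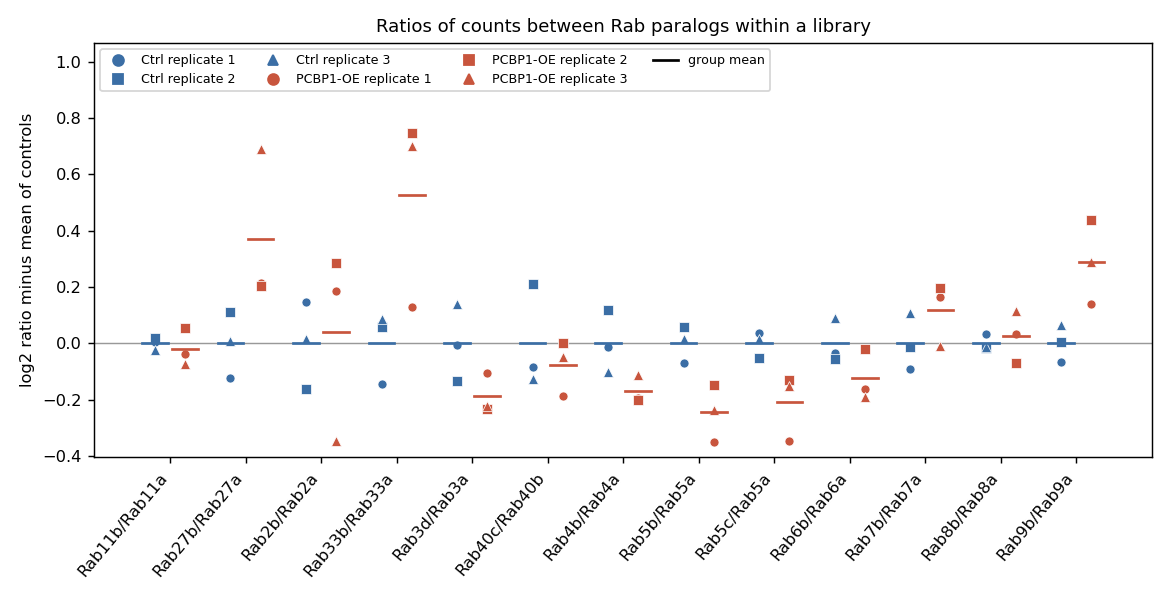
Log2 ratio of the counts of 2 Rab paralogs within a library, minus the mean of the controls (y axis), for 13 pairs (x axis), with 1 point per library and a bar at each group's mean. The PCBP1-OE libraries lie below the controls for Rab4b/Rab4a, Rab5b/Rab5a and Rab5c/Rab5a and above them for Rab9b/Rab9a, Rab27b/Rab27a and Rab33b/Rab33a.

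The genes that run the Rab cycle were taken from a list of 126 symbols for prenylation and cycling, GEFs, GAPs and effectors. The table held 124 of them in 125 rows, Sytl2 being there under more than 1 identifier, and 112 were tested. The test called 8 (7.14%), 7 higher and 1 lower, beside 9.45% of all genes, 4.45% higher and 5% lower. The median log2 fold change of the 112 genes was 0.057. None of the 8 called genes reached 2-fold.

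Eea1, the early endosome tether that Rab5 recruits, rose. It was at 15.5, 12.2 and 13.4 CPM in controls and 16.0, 18.3 and 20.5 CPM in PCBP1-OE, each PCBP1-OE library above each control, at a log2 fold change of 0.41 ± 0.12 (SE, adjusted p = 0.0437). Gapvd1, a GEF for Rab5, rose from 26.4, 27.5 and 31.8 CPM to 35.3, 37.0 and 32.6 CPM (log2 fold change 0.29, adjusted p = 0.0416). Bicd1, an adaptor that couples Rab6 to dynein, rose from 13.1, 11.3 and 13.6 CPM to 16.2, 15.9 and 16.7 CPM (log2 fold change 0.36, adjusted p = 0.0415). The groups stood apart in these 3 genes. For Eea1 the study also reports a decreased alternative 3' splice event, and the counts used here add up all its transcripts.

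Ric1, part of the GEF for Rab6, had the largest change among the genes called. It rose from 3.88, 3.69 and 6.02 CPM to 8.08, 7.43 and 6.84 CPM, a log2 fold change of 0.71 ± 0.18 (SE, adjusted p = 0.0334). Dennd4c, a GEF for Rab10, rose from 8.72, 5.17 and 9.01 CPM to 11.4, 13.7 and 11.4 CPM (log2 fold change 0.67, adjusted p = 0.0354). Neither gene overlapped between groups. Trappc3, a core subunit of the TRAPP complexes that activate Rab1, was the 1 gene that fell, from 100.3, 102 and 97.5 CPM to 85.5, 86.5 and 88.4 CPM (log2 fold change -0.20, standard error 0.044, adjusted p = 0.0178).

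Among the GAPs, Tbc1d15, which acts on Rab7, rose from 52.1, 52.4 and 60.8 CPM to 84.5, 66.2 and 64.9 CPM (log2 fold change 0.38, adjusted p = 0.0258). Rab3gap1, the catalytic subunit of the GAP for Rab3, was called at a log2 fold change of 0.46 (adjusted p = 0.0399), yet its groups overlapped. Its controls were at 24.3, 24.8 and 33.5 CPM and its PCBP1-OE libraries at 37.8, 44.1 and 32.1 CPM. Ctrl replicate 3 lay nearest to the PCBP1-OE libraries in both genes.

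By class, the test called 4 of 36 GEFs, 2 of 33 GAPs and 2 of 35 effectors, beside 9.45% of all genes tested. None of the 8 genes for prenylation and cycling was called by edgeR, DESeq2 or limma-voom, and 6 had an unadjusted p under 0.05, beside 28.4% of all genes. Chm, the escort protein of Rab prenylation, was at 4.79, 4.02 and 9.68 CPM against 12.9, 9.22 and 8.73 CPM (adjusted p = 0.0877), Ctrl replicate 3 lying among the PCBP1-OE libraries. Of the granule effectors, Rph3a had 1 to 6 counts per library and was not tested, and Sytl1, an effector of Rab27, had the lowest log2 fold change of the list, -0.85, from 33 to 44 counts in controls against 19 to 26 under PCBP-1 overexpression (adjusted p = 0.0532).

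**Figure D5:**
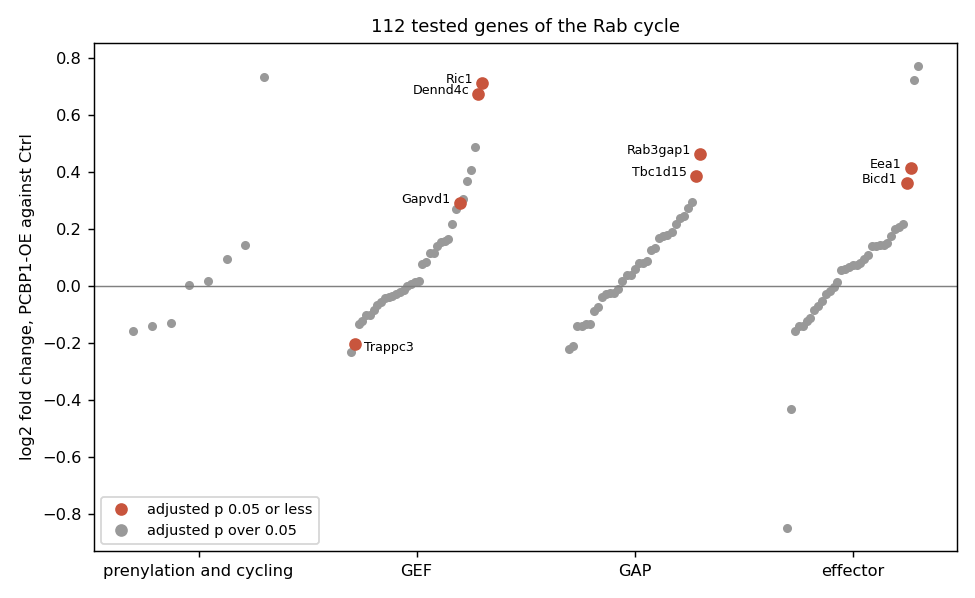
Log2 fold change of PCBP1-OE against Ctrl (y axis) for the 112 tested genes of the Rab cycle, ordered by value within each class (x axis). The 8 genes with an adjusted p of 0.05 or less are named, 7 of them above 0 and Trappc3 below it.

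The count of cycle genes also moved with the library left out, as did the count over all genes. Without replicate 1 or 2 of Ctrl or replicate 1 or 2 of PCBP1-OE the test called 0 of these genes, with 24, 19, 19 and 25 at an unadjusted p under 0.05, and the 8 genes then had adjusted p-values of 0.0567 to 0.187. In these fits 0.375% to 1.92% of all genes were called, and the share at an unadjusted p under 0.05 was not counted. Without PCBP1-OE replicate 3 it called 4 (3.54%, against 5.42% of all genes), having lost Eea1 (0.124), Bicd1 (0.0921), Ric1 (0.0577) and Dennd4c (0.0633). Without Ctrl replicate 3 it called 23 (20.5%, against 22.3% of all genes).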

How the data were processed

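RNA-seq of 3 Ctrl and 3 PCBP1-OE libraries was used, matched to groups by their titles. The values deposited by the authors are unnormalized counts, 1 per gene and library. The study trimmed reads with FASTX-Toolkit, used TopHat2 for alignment to Rnor_6.0, and took uniquely mapped reads only. The labels name the build GRCh38, while the gene identifiers are those of rat. How reads were assigned to genes, and with which strand rule, is not given in the sources used here; counts of near-identical paralogs and overlapping genes are uncertain.

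Genes with few counts were removed by filterByExpr (minimum count 10, minimum total 15), which kept 12624 genes and left out 7985. Libraries were scaled by TMM and tested with edgeR 4.0.16 (R 4.3.3), quasi-likelihood, Benjamini-Hochberg. Intervals are 95%. The fit was repeated with other scaling (RLE, upper quartile), with no filter, with a filter of 1 CPM in 3 libraries, with DESeq2 1.42.0, with limma-voom (limma 3.58.1), with a block for the replicate number, and with 1 library omitted at a time. A lone omission leaves 2 libraries in a group. Replicates differed by more than sampling noise (chi-square per gene 4.87 to 16.9). Paralog ratios had 0.5 added to each count. The code was tested on simulated data. Primer letters come from the study's primer list.

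The members, roles and lists were chosen with earlier results of these data known. Named were the called members, Rab1a, Rab1b, Rab3a, Rab5a, Rab7a, Rab11a, Rab27a, Rab27b, the largest rise and fall in each role, untested members, and of the cycle genes the called ones. Other genes were named after their values were seen. Genomic coordinates and junction reads were not used.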

Additional observations from a re-analysis of the deposited data

How the results depend on the processing

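With RLE and upper-quartile scaling, the stricter filter and DESeq2 the same 3 Rab genes were called, and limma-voom called 2. With no filter edgeR called 5 Rab genes (Rab14 and Rab24 beside the 3), 2 endocytic ones and 15 genes of the Rab cycle (9.09% of Rab and 12% of cycle genes, against 10.1% of all genes). With the replicate block it called 0 Rab genes, 0 endocytic, 0 exocytic and 0 cycle genes, while 16 of all genes (0.127%) were called. There 9 Rab genes had an unadjusted p under 0.05, and the share over all genes was not counted. The numbers did not pair the libraries: same-numbered libraries had correlated deviations of r = -0.104, -0.0813 and -0.107, and other pairs 0.0151 to 0.0827. With 1 library left out, the Rab count ran from 0 to 10, the endocytic from 0 to 4, the exocytic from 0 to 2 and the cycle count from 0 to 23. The share of all genes called in these fits ran from 0.375% to 22.3%. The secretory count was 0 in all 13 alternatives, where the share of all genes ran from 0.127% to 22.3%. With 10 secretory genes tested, a count of 0 tells little where that share is low. The Rab median stayed within -0.024 to 0.024 and within the spread between replicates. Of 299 values under alternatives of the genes named by rule, 232 kept their direction and side of the threshold and 60 lost the call. Only the 3 Rab and 8 cycle genes called as reported could lose a call. Each of them was called in 7 or 8 of 13 alternatives. Rab genes outside the rule that gained a call are given above. Of the 299 values, 1 gained the call (Rab11a, without Ctrl replicate 3) and 6 changed sign. Those were Rab27b at -0.14 without PCBP1-OE replicate 3 (up to 0.19 with another library left out), and Rab3a at 0.0076 with upper-quartile scaling and at 0.028, 0.055, 0.031 and 0.011 without replicate 1 or 2 of Ctrl or replicate 1 or 2 of PCBP1-OE (down to -0.11 with another left out). The cause was not tested. With 3 libraries in a group, leaving 1 out cannot move a paralog difference beyond the spread between replicates, so that check decides nothing. The paralog difference kept its sign in every fit in 9 of 13 pairs. For the 6 pairs without overlap this was fixed in advance, because leaving out a library cannot turn the sign there. Changes in the 8 members with 0 to 16 counts per library are not resolved at this depth.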
